A study of Mus musculus with 7 samples.

Results

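Proteins were measured around amyloid on penetrating vessels, the arteries that dive from the brain surface into the cortex, in mice given the antibody 3D6 and in mice given control IgG. The regions were taken by their number, 13 to 24 in each mouse, which gave 84 of the 166 regions measured, 12 in each mouse, with the other 82 regions in the leptomeninges, the membranes over the brain surface. There were 48 regions from 4 mice given 3D6 (mice 72, 77, 81 and 83) and 36 regions from 3 mice given IgG (mice 29, 37 and 49). All 7 were PDAPP mice, which carry a human amyloid precursor protein transgene that a PDGF promoter expresses mainly in neurons. They were treated for 3 months between 23 and 26 months of age, and males and females were used without a sex given for each mouse. 3D6, an antibody to Aβ of the isotype IgG2b, was given at 25 mg/kg in 1 injection a week, and the control, an IgG2a, at 50 mg/kg in 2 injections a week. The groups therefore differ in isotype, dose and schedule as well as in what the antibody binds, and these cannot be told apart.

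Cerebral amyloid angiopathy is the deposition of Aβ in vessel walls, where it lies among the smooth muscle cells of arteries. An antibody to Aβ that binds vascular amyloid can engage Fc receptors on perivascular macrophages and microglia, and vessel damage in this setting is the tissue counterpart of the amyloid-related imaging abnormalities seen in immunotherapy. Leukocytes enter the space around penetrating vessels from the blood or from the brain surface, and the panel reads them through surface receptors, granule proteins and checkpoint receptors. The question this comparison addresses is whether the proteins of immune cells, vessel wall and matrix differ around penetrating vessel amyloid after treatment.

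The assay was the GeoMx digital spatial profiler. Its antibodies bear DNA tags, which ultraviolet light cuts off within a chosen region for counting. Each region was a circle of 100 μm placed by the stain for amyloid and laminin, so amyloid was used to choose the regions and is not itself a protein of the panel. The panel held 25 target proteins, 3 housekeepers and 3 antibodies with no target in the tissue, 2 from rat (Rt IgG2a and Rt IgG2b) and 1 from rabbit (Rb IgG), which served as negative controls. The level of a protein is given as the log2 ratio of its count to those negative controls (their geometric mean in the same region), averaged over the regions of a mouse. A level of 0 is the geometric mean of the negative controls, and a difference of 1 on this scale is 2-fold. The single controls differed from each other. In 3D6 mice their means were 4.50 log2 counts for Rt IgG2a, 4.01 for Rb IgG and 2.37 for Rt IgG2b. In IgG mice these were 5.24, 5.19 and 3.32. A level below 0 can therefore still lie above Rt IgG2b. Antibodies differ in how well they bind and how brightly they are tagged, so levels compare mice for 1 protein and not amounts of different proteins. A lower level can be fewer cells of a type or less protein in each, and a region cannot tell these apart.

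The median total was 9650 counts per region (2571 to 27759) in 3D6 mice and 15707 counts (3361 to 254884) in IgG mice. Non-specific binding was similar in 6 of the mice and stood apart in IgG mouse 37. The geometric mean of the negative controls had a median of 14.6, 11.7, 9.62 and 10.6 counts in 3D6 mice 72, 77, 81 and 83, against 11.2, 26.7 and 12.6 counts in IgG mice 29, 37 and 49. In 5 regions of mouse 37 (13, 14, 15, 21 and 22) it was 504 to 1429 counts, over 10 times the median of 12.3 counts of all 84 regions, and in its other 7 regions it was 9.73 to 28.1 counts. All 25 targets had higher counts in these 5 regions than in the other 7 of that mouse, by 3.46 to 8.10 on the log2 scale. After division by the negative controls 17 targets were lower there and 8 were higher. Differences on penetrating vessels that changed sign or moved by over 1.5 times without these 5 regions are also given without them.

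Cell content also differed between mice, in both groups. Regions held a mean of 101, 28.3, 24.1 and 27.3 nuclei in 3D6 mice 72, 77, 81 and 83, against 107, 24.8 and 33.9 nuclei in IgG mice 29, 37 and 49. Mice 72 and 29, which were read out together in the last of 3 runs, stood apart from the other 5, with 1 of them in each group, and the groups overlapped (difference -10.0 nuclei, exact permutation test, p = 0.51). A warning for few nuclei was attached to 10 of 48 regions of 3D6 mice and 7 of 36 regions of IgG mice.

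**Figure D1:**
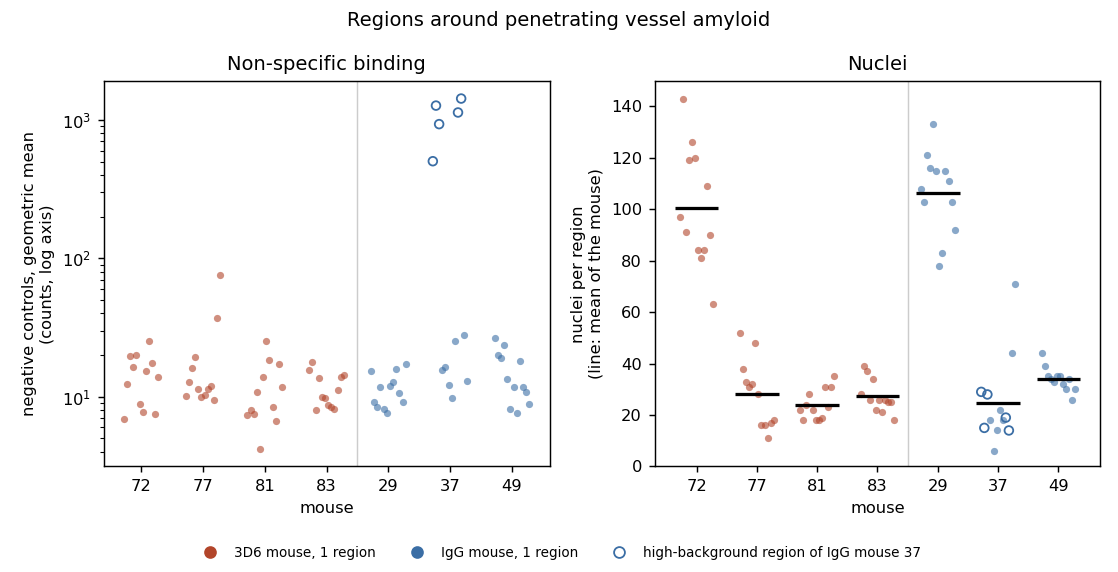
Negative controls (left, counts on a log axis) and nuclei (right) in each of the 84 regions around penetrating vessel amyloid, with 3D6 mice at the left of each panel and IgG mice at the right. The 5 open circles are the regions of IgG mouse 37 at 504 to 1429 counts, and mice 72 and 29 hold a mean of 101 and 107 nuclei per region.

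The panel held proteins of the vessel wall, which mark vessels at both sites and so do not tell penetrating vessels from those of the leptomeninges. Smooth muscle actin (SMA), the contractile protein of the arterial wall, stood at 102 times the negative controls in 3D6 mice and 76.8 times in IgG mice, and the endothelial protein CD31 at 12.7 times in 3D6 mice and 13.4 times in IgG mice. PanCk, a keratin stain of epithelial cells that brain should lack, stood at 1.56 times in 3D6 mice and 2.01 times in IgG mice. Over all mice 15 of the 25 targets lay above 2 times the negative controls, and 7 lay below them, among them CD4, CD28, FOXP3, CD163, PD-1 and Ki-67 at 0.393 to 0.925 times. For 20 of the 25 targets the SD among single regions of a mouse was larger than the SD among the mouse means of a group. Over all 25 targets the medians of these SDs were 0.66 and 0.54. A mouse mean averages 12 regions, so these are spreads of unlike units.

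No protein differed between 3D6 and IgG mice past the threshold around penetrating vessel amyloid. With limma on the 7 mouse means and the Benjamini-Hochberg adjustment, 0 of 25 targets (0%) had an adjusted p under 0.05, and the lowest was 0.18. At an unadjusted p under 0.05 there were 2 of 25 (8.00%), CD45 and PD-1. In 2 targets, CD45 and GZMB, every 3D6 mouse lay above every IgG mouse (8.00% of 25), and in 1, PD-1, every 3D6 mouse lay below (4.00% of 25). The exact permutation test runs over 35 splits of the mice and can give no p below 0.029. After division by the negative controls 12 targets were higher and 13 lower in 3D6 mice, with a median difference of -0.024. With no division 1 was higher and 24 were lower, or 10 and 15 when the 5 high-background regions were also left out, and per nucleus 2 were higher and 23 lower.

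Total counts separated the groups. Their mean on the log2 scale was 13.5, 13.2, 12.9 and 13.2 in 3D6 mice 72, 77, 81 and 83, against 13.7, 15.3 and 13.9 in IgG mice 29, 37 and 49, so every 3D6 mouse lay below every IgG mouse. The difference was -1.11 (exact permutation test, p = 0.029). Without the high-background regions it was -0.56 and the groups still did not overlap (exact permutation test, p = 0.057). The part of total counts in the differences of single proteins was not tested.

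What the comparison allows differs from protein to protein. In 6 targets (CD11b, CD11c, CD3e, CD8a, CTLA4 and Ki-67) the 95% interval of the difference lay within 2-fold in either direction. In the other 19 it reached past 2-fold, and it was narrowest for CD11c at a width of 1.12 and widest for SMA at 3.50 on the log2 scale. For most of the panel a 2-fold difference thus lay within the interval.

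**Figure D2:**
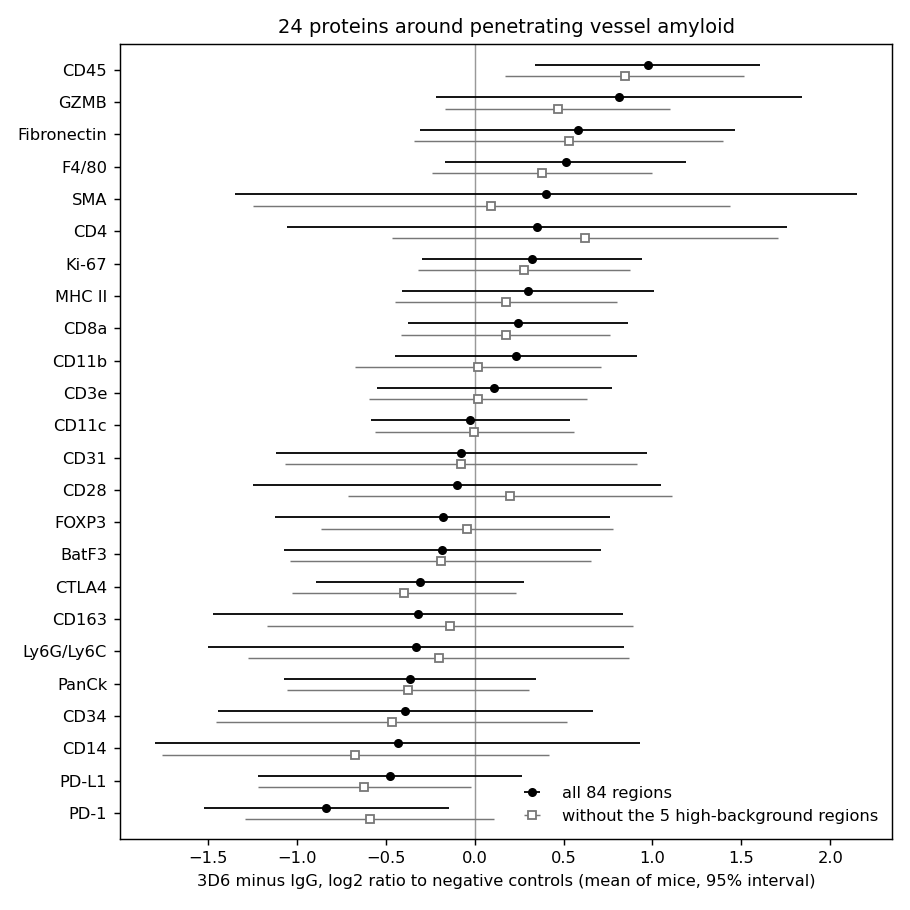
Difference of 3D6 minus IgG in log2 ratio to the negative controls for each of 24 proteins, as the difference of mouse means with its 95% interval from limma, over all 84 regions (filled circles) and without the 5 high-background regions (open squares). With all regions the interval leaves 0 out for CD45 and PD-1, and without the 5 regions for CD45 and PD-L1.

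CD45, the phosphatase on the surface of all leukocytes, had the largest difference of the panel. Its level was 2.08, 2.60, 2.39 and 2.66 in 3D6 mice 72, 77, 81 and 83, against 1.61, 1.64 and 1.13 in IgG mice 29, 37 and 49. The lowest 3D6 mouse lay above the highest IgG mouse, and the gap between these neighbours was smaller than the range within the 3D6 group. The difference was 0.97, or 1.96-fold (95% interval 0.34 to 1.61, limma adjusted p = 0.18, exact permutation test, p = 0.029). It was positive in each of the 3 runs, at 1.40, 0.97 and 0.46. In the last run, that of the nuclei-rich mice 72 and 29, it was the smallest, and without those 2 mice it was 1.17 (limma adjusted p = 0.32).

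In 3D6 mice 77, 81 and 83 the shift of CD45 ran through most regions, and in mouse 72 through fewer. A level above 4 times the negative controls was reached in 4, 11, 8 and 11 of the 12 regions of 3D6 mice 72, 77, 81 and 83, against 3, 3 and 0 of the 12 regions of IgG mice 29, 37 and 49. Medians of regions were 1.94, 2.59, 2.23 and 2.54 in these 3D6 mice, against 1.45, 1.44 and 1.31 in the IgG mice. Single regions overlapped widely, with the highest of each 3D6 mouse between 3.51 and 3.68 and the highest of IgG mouse 37 at 3.10.

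Without the 5 high-background regions the level of CD45 in IgG mouse 37 was 2.02, close below 3D6 mouse 72, and every 3D6 mouse still lay above every IgG mouse. The difference was then 0.84 (95% interval 0.17 to 1.52, limma adjusted p = 0.48). Without division by the negative controls the difference of CD45 was 0.017, and without division and without these regions it was 0.71. In both of these settings the groups overlapped for CD45. They also overlapped with division by Rt IgG2a alone, by nuclei or by the housekeepers (difference 1.02 with the housekeepers, limma adjusted p = 0.91). When every region was entered and the mouse was a block, 1 of 25 targets was called (4.00%), CD45 (limma adjusted p = 0.028, and 0.036 without the 5 regions). That fit takes its degrees of freedom from regions, of which 12 share a mouse, so its p is smaller than one over mice.

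Of the 7 myeloid proteins 2 were higher and 5 lower, with a median difference of -0.18, against -0.024 for the panel, and 0 were called. F4/80, a surface glycoprotein of mouse macrophages and microglia, had levels of 1.92, 1.36, 1.16 and 1.56 in 3D6 mice 72, 77, 81 and 83, against 1.32, 0.65 and 0.99 in IgG mice 29, 37 and 49. The groups overlapped, since IgG mouse 29 lay above 3D6 mouse 81, while within each of the 3 runs the 3D6 mice were higher (by 0.37, 0.70 and 0.60). The difference was 0.51 (95% interval -0.17 to 1.19, limma adjusted p = 0.75), and 0.38 without the high-background regions.

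CD11b, an integrin chain on microglia, macrophages and neutrophils, had levels of 3.82, 3.49, 2.92 and 3.81 in the 3D6 mice, against 3.27, 3.17 and 3.39 in the IgG mice. The 3D6 mice lay on both sides of the IgG mice, and the difference was 0.23 (95% interval -0.45 to 0.91). It was 0.020 without the high-background regions.

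CD14, the monocyte co-receptor for lipopolysaccharide, was the protein furthest above the negative controls, at 145 times in 3D6 mice and 196 times in IgG mice. Its levels were 7.73, 6.58, 7.10 and 7.31 in 3D6 mice, against 9.07, 6.31 and 7.45 in IgG mice. IgG mouse 29 was the highest and IgG mouse 37 the lowest of all 7, so the groups overlapped throughout. The difference was -0.43 (95% interval -1.80 to 0.93, limma adjusted p = 0.80), and it was 0.30 without IgG mouse 29 and -0.67 without the high-background regions.

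The other myeloid proteins had differences smaller in size than that of CD14. These were CD11c and BatF3 of dendritic cells (-0.024 and -0.18), the hemoglobin scavenger receptor CD163 (-0.32) and Ly6G/Ly6C of neutrophils and monocytes (-0.33). Without the high-background regions the differences were -0.0017 for CD11c, -0.14 for CD163 and -0.20 for Ly6G/Ly6C. CD163, a receptor of perivascular macrophages, stood at 0.707 times the negative controls in 3D6 mice and 0.881 times in IgG mice, and exceeded every negative control in 5 of 48 regions of 3D6 mice and 9 of 36 regions of IgG mice. Of the 9 regions 7 were in mouse 37, and of the 5 regions 2 were in mouse 72 and 3 in mouse 77. The mouse levels of CD163 were -0.85, 0.85, -0.89 and -1.12 in 3D6 mice, against -0.57, 0.40 and -0.38 in IgG mice. Both high mice, 77 and 37, were read out in the same run, and single regions of 3D6 mouse 77 reached 3.70. The level of CD163 in mouse 37 was 1.15 in its 5 high-background regions and -0.13 in its other 7. MHC II, which presents antigen to CD4 T cells, differed by 0.30 (95% interval -0.41 to 1.01), or 0.18 without the high-background regions. MHC II lay near the negative controls, at 1.25 times in 3D6 mice and 1.02 times in IgG mice.

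Of the 8 T-cell proteins 4 were higher and 4 lower, with a median difference of 0.0059 and 0 called. GZMB, a protease of the granules of cytotoxic T cells and natural killer cells, was the highest of them at 32.9 times the negative controls in 3D6 mice and 18.7 times in IgG mice. Its levels were 5.05, 5.01, 5.17 and 4.93 in 3D6 mice 72, 77, 81 and 83, against 4.86, 3.01 and 4.82 in IgG mice 29, 37 and 49. The 3D6 mice were almost equal and IgG mice 29 and 49 lay just below them, so the size of the difference rested mostly on mouse 37. The difference was 0.81 (95% interval -0.22 to 1.84, limma adjusted p = 0.75, exact permutation test, p = 0.029).

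In the 5 high-background regions of mouse 37 the level of GZMB was 1.56, and in its other 7 regions 4.05. Without these 5 regions the difference of GZMB was 0.47 (limma adjusted p = 0.61), and without the whole mouse 0.20. Every 3D6 mouse stayed above every IgG mouse in both cases. The groups overlapped for GZMB with the median over the regions of a mouse and with division by Rt IgG2b alone or by nuclei. They also overlapped with no division, with or without the 5 regions.

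CD3e, the signalling chain of the T-cell receptor, had levels of 1.68, 1.68, 1.06 and 1.16 in 3D6 mice, against 1.50, 0.98 and 1.37 in IgG mice. The groups overlapped and the difference was 0.11 (95% interval -0.55 to 0.77), or 0.020 without the high-background regions. CD8a, the co-receptor of cytotoxic T cells, differed by 0.24 and had a level above 2 times the negative controls in 7 of 48 regions of 3D6 mice and 2 of 36 regions of IgG mice. Of the 7 regions 5 were in mouse 77 and 2 in mouse 81.

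CD4, the co-receptor of helper T cells, had a median of 4.50 counts per region and differed by 0.35 (95% interval -1.06 to 1.76), or 0.62 without the high-background regions. CD28, which delivers the costimulatory signal, differed by -0.099, and by 0.20 without these regions, so its sign rested on them. FOXP3, the transcription factor of regulatory T cells, differed by -0.18, or -0.041 without them. The means of CD4, CD28 and FOXP3 lay below the negative controls in both groups. In the 5 high-background regions of mouse 37, by contrast, the level was 1.01 for CD4 and 1.19 for CD28, and in that mouse CD28 exceeded 2 times the negative controls in 4 of 12 regions and CD4 in 2.

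The checkpoint proteins CTLA4, PD-1 and PD-L1 were all lower in 3D6 mice, with a median difference of -0.48 and 0 called. PD-1, the inhibitory receptor of activated T cells, had levels of -0.74, -0.086, -0.68 and -1.09 in 3D6 mice 72, 77, 81 and 83, against -0.027, 0.32 and 0.26 in IgG mice 29, 37 and 49. Every 3D6 mouse lay below every IgG mouse, but 3D6 mouse 77 and IgG mouse 29 were nearly equal. The difference was -0.83, or 0.561-fold (95% interval -1.52 to -0.14, limma adjusted p = 0.29, exact permutation test, p = 0.057).

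PD-1 was read near the negative controls, at 0.638 times their geometric mean in 3D6 mice and 1.14 times in IgG mice. PD-1 had under 10 counts in 42 of 84 regions. It exceeded 2 times the negative controls in 1 of 48 regions of 3D6 mice and 8 of 36 regions of IgG mice, 5 of these in mouse 37. In the 5 high-background regions of mouse 37 its level was 1.34, and in the other 7 regions -0.40. Without the 5 regions mouse 37 lay between the 3D6 mice, the groups overlapped, and the difference was -0.59 (95% interval -1.29 to 0.11, limma adjusted p = 0.61).

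PD-L1, the ligand of PD-1 on myeloid and endothelial cells, had levels of 1.62, 1.70, 1.53 and 1.54 in 3D6 mice, against 2.53, 1.36 and 2.33 in IgG mice. The 3D6 mice were close together, with IgG mice 29 and 49 above them and mouse 37 below. The difference was -0.48 (95% interval -1.22 to 0.27, limma adjusted p = 0.75). Without the high-background regions mouse 37 stood at 1.79, every 3D6 mouse lay below every IgG mouse, and the difference was -0.62, or -0.83 without the whole mouse (limma adjusted p = 0.56 and 0.085). Leaving out those regions thus moved PD-1 and PD-L1 in opposite ways.

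CTLA4, the inhibitory receptor that competes with CD28, had levels of 1.03, 1.13, 1.07 and 1.29 in 3D6 mice, against 1.15, 1.74 and 1.41 in IgG mice. IgG mouse 29 lay among the 3D6 mice and the other IgG mice above them. The difference was -0.31 (95% interval -0.89 to 0.28) and negative in each run (-0.23, -0.61 and -0.13). Over the whole panel 4 targets were higher in 3D6 mice in all 3 runs (CD4, CD45, F4/80 and GZMB), 3 were lower in all runs (CTLA4, PD-1 and PanCk), and 18 had runs of both signs.

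**Figure D3:**
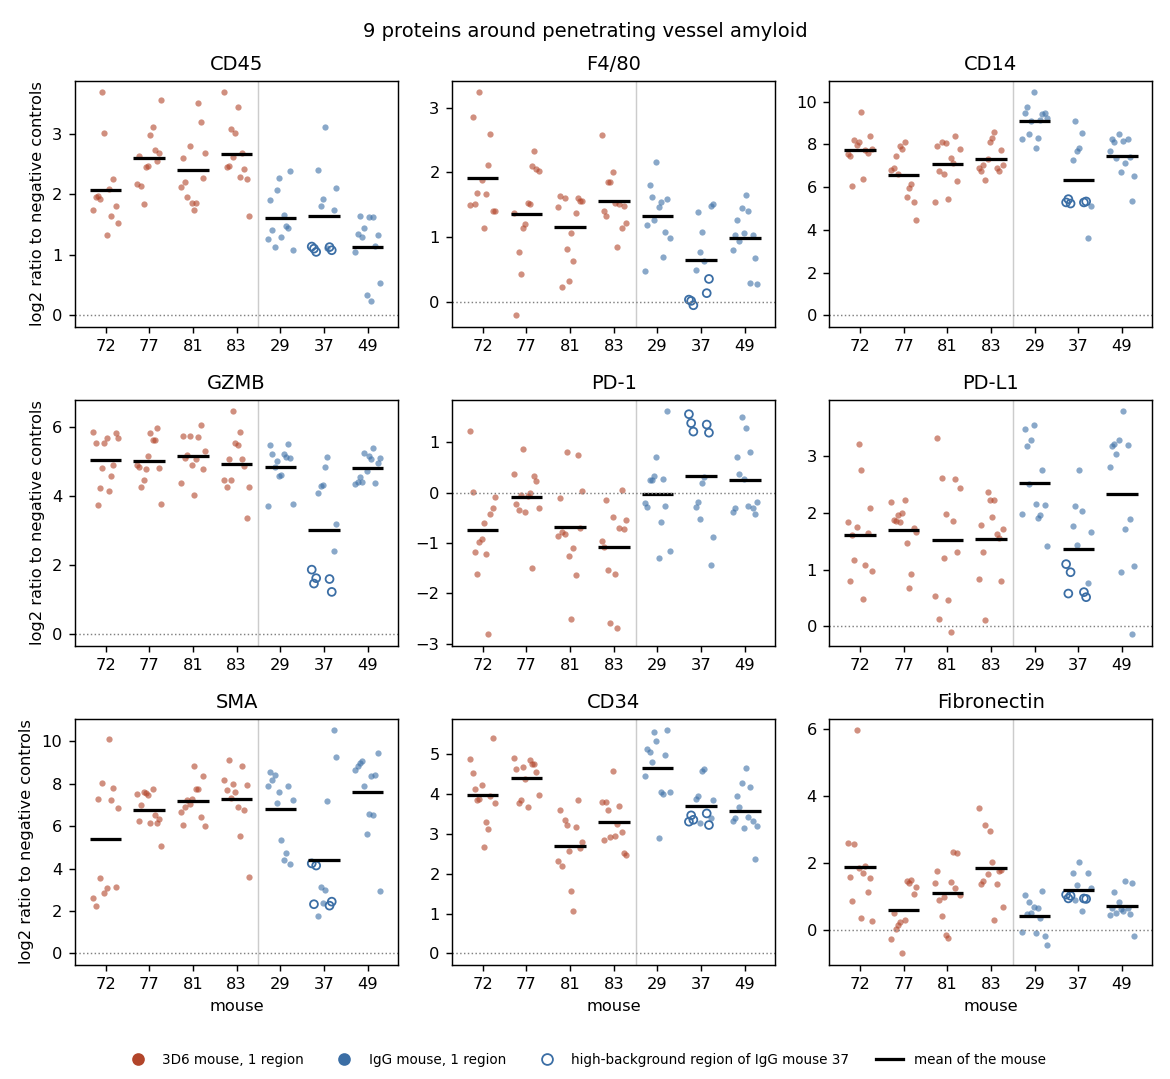
Level of 9 proteins in each region (points) and the mean of each mouse (black lines), as log2 ratio to the negative controls, with 3D6 mice 72, 77, 81 and 83 at the left and IgG mice 29, 37 and 49 at the right of each panel. The 5 open circles are the high-background regions of mouse 37. Their mean is higher than that of the other 7 regions of that mouse for PD-1. It is lower for all other proteins drawn, most for GZMB, SMA and CD14. The dotted line marks the negative controls.

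Of the 3 proteins of the vessel wall 1 was higher and 2 lower, with a median difference of -0.074. SMA had levels of 5.40, 6.78, 7.20 and 7.29 in 3D6 mice 72, 77, 81 and 83, against 6.80, 4.38 and 7.61 in IgG mice 29, 37 and 49. One mouse of each group, 72 and 37, lay well below the others, and the groups overlapped. The difference was 0.40 (95% interval -1.35 to 2.15, limma adjusted p = 0.80), with changes of over 2-fold in either direction inside the interval. It was 0.094 without the high-background regions and -0.54 without IgG mouse 37.

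SMA also had the largest spread among regions of the panel, with an SD within a mouse of 1.93. Regions of 3D6 mouse 72 ran between 2.23 and 10.1, and those of IgG mouse 37 between 1.74 and 10.5. Regions of 3D6 mouse 77, by contrast, lay between 5.08 and 7.74. In mice 72 and 37 single regions of a section thus differed more in SMA than any mice did.

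CD34, a sialomucin of endothelial cells, had levels of 3.97, 4.39, 2.69 and 3.29 in 3D6 mice, against 4.66, 3.70 and 3.58 in IgG mice. IgG mouse 29 was the highest and 3D6 mice 81 and 83 the lowest, and the groups overlapped. The difference was -0.39 (95% interval -1.44 to 0.66, limma adjusted p = 0.80). CD31, the adhesion molecule of endothelial junctions, had levels of 3.32, 4.75, 3.85 and 2.75 in 3D6 mice, against 4.06, 3.46 and 3.72 in IgG mice. The 3D6 mice lay on both sides of the IgG mice and the difference was -0.074 (95% interval -1.12 to 0.97).

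Fibronectin, a matrix glycoprotein that fibroblasts and injured vessels lay down, had levels of 1.86, 0.58, 1.11 and 1.84 in 3D6 mice 72, 77, 81 and 83, against 0.41, 1.19 and 0.70 in IgG mice 29, 37 and 49. 3D6 mice 72 and 83 lay above every IgG mouse, while mouse 77 was lower than all IgG mice but mouse 29. The difference was 0.58 (95% interval -0.30 to 1.47, limma adjusted p = 0.75), and 0.53 without the high-background regions. Within the runs it was 0.77, -0.61 and 1.45, with the opposite sign in the run of mice 77 and 37.

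Fibronectin was uneven among regions. It reached 5.96 in 1 region of 3D6 mouse 72, region 17, and 3.64 in the next highest region of the 3D6 group, while the median of mouse 72 was 1.63. Levels above 4 times the negative controls were found in 3, 0, 2 and 4 of the 12 regions of 3D6 mice 72, 77, 81 and 83, against 0, 1 and 0 regions of IgG mice 29, 37 and 49. In region 17 CD45 was 3.68 and F4/80 was 3.24, each the highest of its mouse.

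Ki-67 lay near the negative controls, and PanCk not far above them. Ki-67, a nuclear protein of dividing cells, differed by 0.32 (95% interval -0.29 to 0.94) at 1.02 times the negative controls in 3D6 mice and 0.814 times in IgG mice. PanCk differed by -0.36 (95% interval -1.07 to 0.34). In IgG mice PanCk, which brain should lack, stood at 2.01 times the negative controls, against 1.70 times for fibronectin and 1.98 times for F4/80. It exceeded every negative control in 18 of 36 regions of IgG mice, against 16 for fibronectin and 20 for F4/80. In 3D6 mice these were 17 of 48 regions for PanCk, 31 for fibronectin and 36 for F4/80.

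The treatment differences around penetrating vessels were set against those in the leptomeninges of the same mice, by taking the level on penetrating vessels minus that in the leptomeninges within each mouse. In limma 7 of 25 targets (28.0%) had a treatment difference that was not the same at the sites, 6 of them lower on penetrating vessels and 1, SMA, higher. CD45 was 1 of these, at 0.97 on penetrating vessels and 2.46 in the leptomeninges. Both sites of a mouse share a section and a run.

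Fibronectin had the largest gap between the sites. Within a mouse, penetrating vessels minus leptomeninges gave -2.70, -3.58, -1.77 and -3.31 in 3D6 mice 72, 77, 81 and 83, against -1.03, -0.58 and -0.74 in IgG mice 29, 37 and 49. Fibronectin was lower on penetrating vessels in all 7 mice, and by more in every 3D6 mouse than in any IgG mouse. The treatment difference was 0.58 on penetrating vessels and 2.64 in the leptomeninges, which differ by -2.06 (standard error 0.44, limma adjusted p = 0.018).

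CD11b gave -0.66, -0.73, -0.28 and -1.23 in 3D6 mice, against 0.48, 0.39 and 1.02 in IgG mice. It was lower on penetrating vessels in every 3D6 mouse and higher there in every IgG mouse. Its treatment differences, 0.23 and 1.59, differ by -1.36 (standard error 0.34, limma adjusted p = 0.018). The gap was -0.97 for F4/80, -1.27 for Ly6G/Ly6C and -1.27 for CD28 (limma adjusted p = 0.042, 0.042 and 0.018).

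SMA went the other way. Penetrating vessels minus leptomeninges gave -2.25, -0.25, -0.72 and -1.58 in 3D6 mice, against -2.99, -5.02 and -2.18 in IgG mice. SMA was lower on penetrating vessels in all 7 mice, and the groups overlapped, since 3D6 mouse 72 lay below IgG mouse 49. The treatment differences, 0.40 on penetrating vessels and -1.79 in the leptomeninges, differ by 2.20 (standard error 0.69, limma adjusted p = 0.042). For PD-1 the gap of -0.93 did not pass (limma adjusted p = 0.052), and for GZMB it was -0.23 (95% interval -1.73 to 1.27).

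Every call between the sites was lost in some settings. Without the high-background regions 5 were left (CD11b, CD45, F4/80, fibronectin and SMA). With the run as a block, and without IgG mouse 29, there were 0, while the gap of fibronectin was -2.12 and -2.18 (limma adjusted p = 0.060 and 0.057). Division by a single negative control or by nuclei, adding 1 to each count and the other adjustment were not counted between the sites. Over the remaining alternatives that held them, fibronectin was called in 13 of 16, CD45 in 12 and CD11b in 11. SMA was called in 6, F4/80 in 5 and Ly6G/Ly6C in 4, and CD28 in 6 of 15. SMA was the single call with division by the housekeepers. It was lost without IgG mouse 37, where its gap was 1.38 (limma adjusted p = 0.064), without IgG mouse 29 or any of 3D6 mice 77, 81 and 83, and with the median over regions or the unmoderated model.

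**Figure D4:**
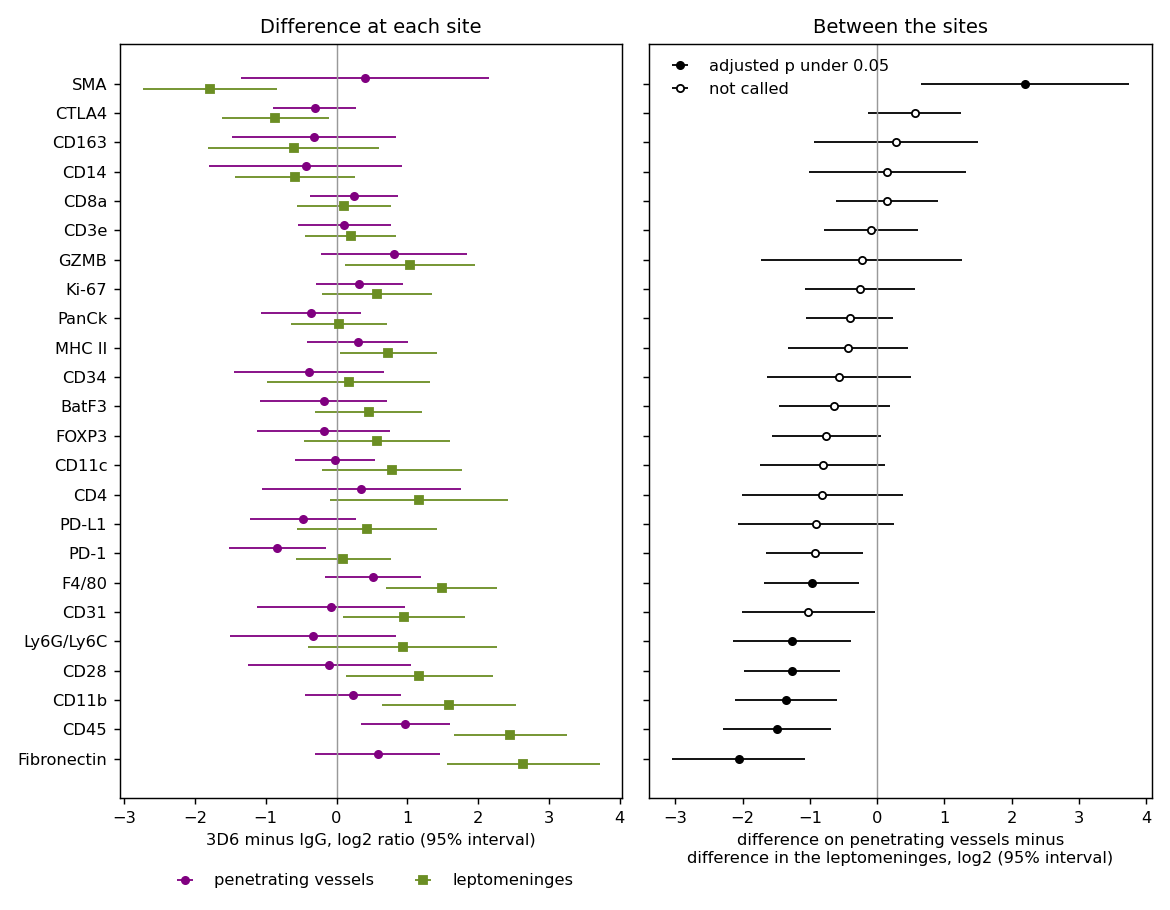
Left, difference of 3D6 minus IgG in log2 ratio with its 95% interval for 24 proteins on penetrating vessels (circles) and in the leptomeninges (squares). Right, the difference on penetrating vessels minus that in the leptomeninges with its 95% interval, with filled points for the 7 targets called, from -2.06 for fibronectin to 2.20 for SMA.

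Over single regions of 3D6 mice CD45 went with fibronectin, CD11b and F4/80. These are descriptions over regions that share mice and the same division by the negative controls, given as Pearson r of the deviations from the mouse means. Over the 48 regions of 3D6 mice the highest r with CD45 were 0.71 for fibronectin, 0.61 for CD11b and 0.56 for F4/80, each positive in 4 of 4 mice. The lowest were -0.12 for Ki-67, -0.071 for CD14 and -0.055 for PanCk, and for CD163 r was 0.11. Without region 17 of mouse 72 the r of CD45 was 0.61 with fibronectin, 0.60 with CD11b and 0.48 with F4/80 over 47 regions.

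In the 36 regions of IgG mice the highest r with CD45 were 0.69 for CD11b, 0.60 for PD-L1 and 0.52 for CD34, and the lowest -0.41 for FOXP3, -0.27 for CD28 and -0.22 for CD4. Without the high-background regions, over 31 regions, the highest were 0.56 for CD11c, 0.54 for CD11b and 0.53 for PD-L1, and the lowest -0.24 for FOXP3, -0.12 for SMA and 0.022 for CD163. For F4/80 r was 0.43 in IgG mice and 0.21 without those regions. For fibronectin r was 0.38 in IgG mice and 0.31 without those regions, and whether it differs from that in 3D6 mice was not tested. The r of CD45 with the negative controls, which stand in its denominator, was 0.0059 in 3D6 mice and -0.51 in IgG mice, or -0.12 without those regions. CD11b was thus the partner near the top in both groups with and without them.

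**Figure D5:**
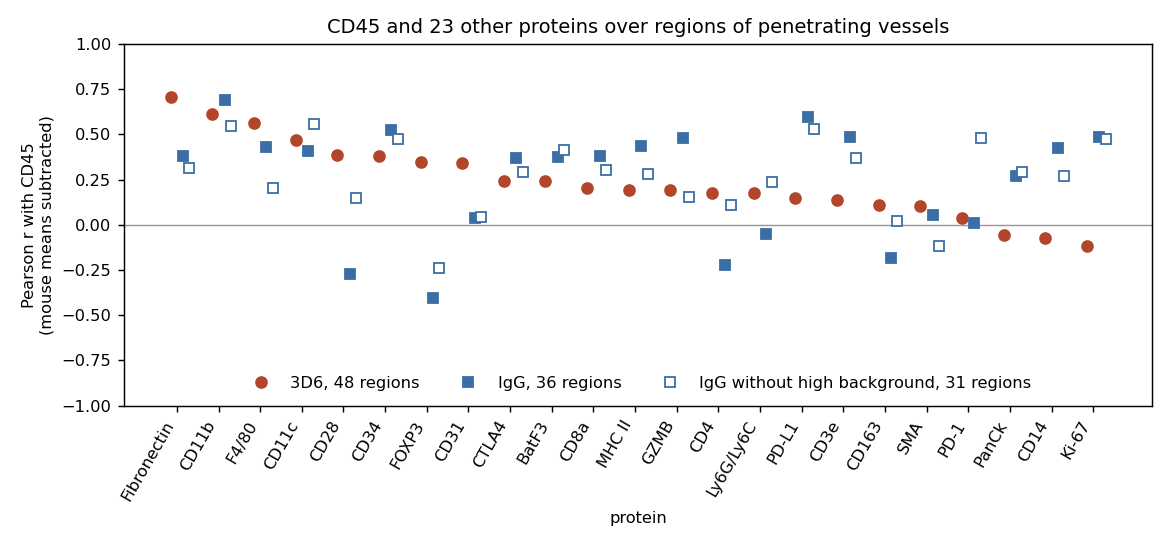
Pearson r of CD45 with each of 23 other proteins over regions around penetrating vessel amyloid, with the mean of each mouse subtracted, in 3D6 mice (circles, 48 regions), IgG mice (filled squares, 36 regions) and IgG mice without the high-background regions (open squares, 31 regions). In 3D6 mice r falls between 0.71 for fibronectin and -0.12 for Ki-67.

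For PD-1, the target of the largest negative difference, the highest r over the regions of 3D6 mice were 0.45 for CD34, 0.38 for Ly6G/Ly6C and 0.33 for FOXP3, and the lowest -0.25 for SMA, -0.13 for CD4 and 0.0093 for F4/80. In IgG mice they were 0.71 for Ly6G/Ly6C, 0.55 for CD28 and 0.54 for CD4, and -0.36 for SMA, -0.23 for GZMB and -0.22 for F4/80. Without the high-background regions the highest in IgG mice were 0.81 for CD34, 0.61 for BatF3 and 0.61 for CD3e, while CD28 stood at 0.19, CD4 at 0.28, GZMB at 0.52 and F4/80 at 0.20. The r of PD-1 with the negative controls was -0.39 in 3D6 mice and 0.55 in IgG mice, or -0.20 without those regions.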

How the data were processed

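Per the labels and the study's methods, brain sections (5 μm thick in the labels, 10 μm in the methods) of 7 mice were profiled in 3 runs. The deposited values are counts that the authors had scaled by calibration and positive-control factors, so they are not whole, and count models in their usual form were not applied. The deposited other values used were nuclei per region and the warning for few nuclei. The authors' normalized scores were not used, and a mouse that they removed is not analysed here. Each mouse was 1 replicate. Mouse means of log2 ratios to the negative controls, with no pseudocount, were compared with limma 3.58.1 in R 4.3.3 (two-sided, Benjamini-Hochberg adjustment over 25 targets, threshold 0.05). The values of 1 target, which was in every fit and count, are not reported here. The exact permutation test over mice was two-sided. Region-level fits used statmod 1.5.0 (correlation of regions within a mouse 0.27), and other steps Python 3.11.15, numpy 2.4.6 and pandas 2.3.3. The fit was tested on simulated data. Full statistics went to targets with an unadjusted p under 0.05 or groups that did not overlap, the 4 largest differences in each direction, and SMA. The members, lists and tests were chosen with earlier results of these data known. Alternatives covered the divisor, how regions were averaged, adding 1 to each count, keeping targets above 2 times the negative controls, regions left out, blocks, moderation, the adjustment and each mouse left out. A further 3 settings were chosen after seeing the data: without the mice of run 3, and 2 that join the omission of the high-background regions with no division or with the region-level fit.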

Additional observations from a re-analysis of the deposited data

Results flagged for a closer look

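Of 29 measures in the 4 mice given 3D6 (25 targets, nuclei, negative controls, housekeepers and totals), 2 had a mouse far from the other 3 (chance gives about 1 in 20). The level of CD163 was 0.85 in 3D6 mouse 77, against -0.85, -0.89 and -1.12 in 3D6 mice 72, 81 and 83. The mean number of nuclei was 101 per region in 3D6 mouse 72, against 24.1 to 28.3 in the others.

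For 7 targets the treatment difference on penetrating vessels minus that in the leptomeninges was called: -2.06 for fibronectin, -1.48 for CD45, -1.36 for CD11b, -1.27 for CD28, -1.27 for Ly6G/Ly6C, -0.97 for F4/80 and 2.20 for SMA. The cause of these differences was not tested.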

How the results depend on the processing

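The count of called targets on penetrating vessels was 0 in every alternative but the region-level fits with the mouse as a block, which called 1 with and 1 without the high-background regions. The 3 of 25 targets whose groups did not overlap (CD45, GZMB and PD-1) became 1 with division by Rt IgG2b alone (CD45) or by the housekeepers (GZMB). Per nucleus there were 0. With no division there were 2, PD-L1 and PanCk, and without the high-background regions as well there was 1, PD-L1. With no division none of CD45, GZMB and PD-1 was thus among them. The count was 7 of 25 without the mice of run 3, and 3 to 6 of 25 with each mouse left out. Groups of fewer mice separate more easily even with no treatment difference, so these counts are not a stronger result. No division moved the median of all targets to -0.98 and division by nuclei to -0.74, and 11 and 10 of 25 targets changed sign. With no division the differences were -0.44 for F4/80, -0.38 for fibronectin, -0.14 for GZMB and -0.55 for SMA, and per nucleus -0.20 for F4/80, -0.13 for fibronectin and -0.31 for SMA. SMA was also -0.36 with the arithmetic mean, -0.090 without regions of few nuclei, -0.037 with no division and without the high-background regions, and -0.54 to 1.08 with each mouse left out. CD14 was 0.051 without regions of few nuclei, 0.11 without the mice of run 3, and -1.08 to 0.30 with each mouse left out. CD45, PD-1, PD-L1 and CD34 kept their signs in all alternatives that held them (PD-1 lay below the filter at 2 times the negative controls). The 7 calls between the sites became 1 with the housekeepers, 1 with no division and 3 with the median per mouse. Without regions of few nuclei there were 3, and only 6 mice were left with both sites. With the run as a block there were 0, and with each mouse left out 0 to 6. The difference in nuclei ranged from -28.5 to 15.7 with each mouse left out, turning positive without IgG mouse 29 (exact permutation test, p = 0.87). The cause of these changes was not tested. No paired analysis was possible because mice of the groups share no replicate number. The run, which held mice of both groups, was entered as a block instead.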
